A study of Homo sapiens with 60 samples.

Results

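J-domain proteins and chaperonins are chaperone machinery, and 45 of their genes were followed here among the 60675 genes of the count table. They were taken by symbol: 35 J-domain genes (DNAJA1 to DNAJC30), the 8 subunits of the cytosolic chaperonin CCT/TRiC, and HSPD1 with HSPE1, the mitochondrial chaperonin and its lid. All 45 were found and all 45 passed the filter on low counts. By where the proteins work they fell into 9 cytosolic J-domain genes, 8 CCT/TRiC genes, 5 genes of the ER lumen, 6 of the ER membrane, 8 mitochondrial genes and 9 specialised J-domain genes.

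RNA of SW1783 cells, a long-established line from a human astrocytoma, was sequenced after 24 h with an ethanol extract of herbs or with the DMSO vehicle. The doses of Astragali Radix were 8.8, 44 and 220 µg/mL. Cinnamomi Cortex and the formulas Sibjeondaebo-tang, Palmul-tang, Samul-tang and Sagunja-tang were given at 20, 100 and 500 µg/mL, and these low, medium and high doses made 18 groups of 3 libraries beside 3 vehicle libraries. Rehmanniae Radix Preparata had 1 library per dose and entered no test. By recipe, Palmul-tang is made of the herbs of both Samul-tang and Sagunja-tang, and Sibjeondaebo-tang of those plus Cinnamomi Cortex and Astragali Radix. The series text sets the highest dose at an inhibitory concentration of the extract where that concentration lay under 500 µg/mL, so 220 µg/mL of Astragali Radix is a dose defined by its effect on the cells. The sample labels give the vehicle as 0.1% DMSO, while the series text gives 2%. The vehicle libraries carry a sample code that no extract shares, so that an extract and its code cannot be told apart in a comparison with the vehicle. The labels do not say whether replicates were separate cultures, and the p-values measure the spread between these libraries.

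Depth ran between 19793387 and 37152410 counts per library. The line kept few of the defining markers of mature astrocytes: GFAP averaged 0.0683 CPM at the high dose of Astragali Radix and 0.119 CPM in the vehicle, S100B 0.0286 and 0.0910 CPM, and AQP4 0.0110 and 0 CPM. VIM, at 5791 and 5317 CPM, and CD44, at 2255 and 2844 CPM, were abundant, and 5 of 8 listed markers of astrocytes and astrocytomas exceeded 1 CPM in the vehicle. The summed level of that list, nearly all of it VIM and CD44, was 7616 to 8494 CPM at the high dose of Astragali Radix and 8145 to 8334 CPM in the vehicle. SLC1A3 averaged 12.2 and 21.7 CPM, SOX9 59.7 and 78.7 CPM and NES 1.72 and 5.05 CPM at the high dose and in the vehicle. The summed neuron markers were 13.6 to 14.4 CPM and 29.1 to 32.4 CPM in these groups, and the epithelial markers 0 to 0.0661 and 0.0789 to 0.153 CPM; their part in the results was not tested. Low-dose Astragali Radix replicates 1 and 2 stood apart from the other libraries. Transcript length and GC content accounted for 15.7% and 38.0% of the variance of their deviations, against 0.736% in replicate 3, and the mitochondrial share of counts was 1.38% in replicate 2. Some results that use that dose are also given without them.

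J-domain proteins bring unfolded clients to HSP70 chaperones and switch on their ATP hydrolysis, so each one sets where and on what an HSP70 works. Chaperonins are barrels that enclose a client while it folds: CCT/TRiC folds actin and tubulin in the cytosol, and HSP60 with its lid HSP10 folds proteins in the mitochondrial matrix. Many of these genes are classical targets of the heat shock factor HSF1, and several of the ER genes are targets of the unfolded protein response. Both programmes are known to be active in astrocytic tumours.

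Promoter windows of some of the genes are shown first. Most of the cytosolic J-domain genes, the CCT/TRiC genes and the ER lumen genes described below were higher at the high dose of Astragali Radix. Any link between that rise and the promoter letters was not tested. RefSeq (GRCh38.p14) gave 300-base windows, from 250 bases before to 50 bases after a transcript start, for 42 of the 45 genes, 55 windows in all, and 10 genes had more than 1 window. DNAJC1, DNAJC24 and CCT6A had none. Both strands were searched for the 2-unit heat shock element, GAANNTTC or TTCNNGAA, the binding letters of HSF1. It was found in 10 of the 42 genes, and in 14.9% of the 15843 protein-coding genes with a window (11.6% of 22199 windows). The genes were DNAJA1, DNAJA4, DNAJB1, DNAJB4 and DNAJB6 of the cytosolic group, TCP1, CCT2 and CCT4 of CCT/TRiC, and DNAJC15 and HSPD1 of the mitochondrial group. The longer element of 3 units, GAANNTTCNNGAA or TTCNNGAANNTTC, which contains the shorter one, was in DNAJA1, DNAJB6 and HSPD1, against 0.537% of all genes and 0.405% of windows. These matches are letters in a window and not tested binding sites.

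The windows of the 3 genes with the longer element follow, 5′ to 3′ on the gene's strand, with the element in capitals. DNAJA1 (chr9:33025023-33025322, forward strand) has it 3 bases after the start, DNAJB6 (chr7:157336754-157337053, forward strand) 131 bases before it. HSPD1 (chr2:197499791-197500090, reverse strand) has 2 overlapping matches that begin 245 bases before the start.
DNAJA1: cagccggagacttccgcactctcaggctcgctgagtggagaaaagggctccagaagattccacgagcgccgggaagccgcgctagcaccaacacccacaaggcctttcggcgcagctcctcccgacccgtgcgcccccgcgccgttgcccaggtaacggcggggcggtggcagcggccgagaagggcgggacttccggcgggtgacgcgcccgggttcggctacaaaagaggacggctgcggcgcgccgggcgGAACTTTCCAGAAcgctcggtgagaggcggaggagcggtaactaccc
DNAJB6: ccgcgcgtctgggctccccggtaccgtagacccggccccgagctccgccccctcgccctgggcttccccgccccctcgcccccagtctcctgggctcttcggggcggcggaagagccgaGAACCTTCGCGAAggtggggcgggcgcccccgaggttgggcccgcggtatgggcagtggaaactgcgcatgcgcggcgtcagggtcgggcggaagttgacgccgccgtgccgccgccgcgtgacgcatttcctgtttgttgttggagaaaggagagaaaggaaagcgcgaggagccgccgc
HSPD1: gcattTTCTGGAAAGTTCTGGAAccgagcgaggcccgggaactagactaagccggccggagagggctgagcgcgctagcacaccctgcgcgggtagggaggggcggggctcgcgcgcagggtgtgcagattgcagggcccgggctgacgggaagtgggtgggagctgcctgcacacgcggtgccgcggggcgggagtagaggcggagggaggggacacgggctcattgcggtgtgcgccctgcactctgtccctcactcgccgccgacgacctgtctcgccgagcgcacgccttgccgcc

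A pair of CCT/TRiC windows is set beside them with the 2-unit element in capitals. Of the 7 CCT/TRiC genes with a window, 3 held this element. It begins 231 bases before the start of TCP1 (chr6:159789553-159789852, reverse strand) and 38 bases after the start of CCT4 (chr2:61888607-61888906, reverse strand).
TCP1: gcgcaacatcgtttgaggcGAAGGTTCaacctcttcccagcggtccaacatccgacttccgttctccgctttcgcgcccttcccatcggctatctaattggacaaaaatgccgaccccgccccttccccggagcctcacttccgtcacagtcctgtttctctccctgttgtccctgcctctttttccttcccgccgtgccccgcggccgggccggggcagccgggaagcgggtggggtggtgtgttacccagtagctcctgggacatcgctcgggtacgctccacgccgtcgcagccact
CCT4: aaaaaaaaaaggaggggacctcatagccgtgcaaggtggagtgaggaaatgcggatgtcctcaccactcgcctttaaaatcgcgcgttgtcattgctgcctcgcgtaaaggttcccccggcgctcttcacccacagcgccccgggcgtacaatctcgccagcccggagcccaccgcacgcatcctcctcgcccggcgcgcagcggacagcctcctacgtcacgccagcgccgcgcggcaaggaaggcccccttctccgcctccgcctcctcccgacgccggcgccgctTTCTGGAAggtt

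DNAJB9 is the ER gene with the largest change, and its window (chr7:108569624-108569923, forward strand) is shown with its CCAAT box in capitals, 31 bases before the start. The CCAAT box, the part of the ER stress element that the factor NF-Y binds, was in 42.1% of all genes (34.7% of windows) and in 16 of the 42 genes here. Those 16 included DNAJB9, DNAJB11, DNAJC3 and DNAJC10, all 4 ER lumen genes with a window. The whole ER stress element, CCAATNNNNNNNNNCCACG, was in none of the 42 genes and in 0.133% of all genes, and the unfolded protein element TGACGTGG was in DNAJC10 and in 1.05% of all genes.
DNAJB9: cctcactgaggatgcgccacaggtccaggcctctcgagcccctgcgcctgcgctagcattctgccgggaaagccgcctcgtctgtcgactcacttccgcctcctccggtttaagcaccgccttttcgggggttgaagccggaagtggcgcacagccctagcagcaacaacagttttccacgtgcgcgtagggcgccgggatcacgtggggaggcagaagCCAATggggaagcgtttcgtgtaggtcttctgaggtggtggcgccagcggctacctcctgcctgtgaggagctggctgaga

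In vehicle cells the chaperonins led the 45 genes in level per kilobase of transcript. CCT5 averaged 231 ± 5.57 CPM per kb, CCT7 212 ± 3.46 and TCP1 182 ± 6.53 (SD, n = 3). Between these neighbours the libraries did not overlap in the order CCT5, CCT7, TCP1. DNAJB11, the HSP40 of the ER lumen also called ERdj3, followed at 154 ± 0.601 CPM per kb, ahead of all cytosolic J-domain genes, of which DNAJA1 (97.7), DNAJB6 (96.9) and DNAJB1 (92.0 CPM per kb) were close to each other. HSPE1 and CCT3 both stood at 141 CPM per kb, with SDs of 11.6 and 5.30, and do not differ beyond their spread. DNAJA4 (1.08), DNAJC15 (1.05) and DNAJC28 (1.01 CPM per kb) were the lowest, so that the gene with the largest change described below was among the least expressed in vehicle cells. All other levels are CPM, counts scaled for library size with TMM factors, and are compared only within a gene.

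The high dose of Astragali Radix set the 45 genes apart by compartment. Against the vehicle, 31 were higher and 10 lower by edgeR's quasi-likelihood test (adjusted p below 0.05, Benjamini-Hochberg over 17676 genes), while 68.2% of all genes tested passed, 32.6% higher and 35.6% lower. Scaled by total counts in place of TMM, 21 of the 45 were higher and 14 lower, and of all genes 3573 were higher and 9004 lower, against 5763 and 6289 with TMM. The share called is therefore high for any list, and direction and size carry the description. The median log2 change was 1.31 for the cytosolic J-domain genes, 0.82 for CCT/TRiC, 0.49 for the ER lumen and -0.49 for the mitochondrial genes, and 0.38 over all 45, beside -0.06 over all genes. The ER membrane and specialised medians, 0.23 and 0.08, turned to -0.11 and -0.25 when libraries were scaled by total counts, and the specialised one to -0.06 with upper-quartile factors. Total-count scaling moved the median of all genes to -0.39, and the other 4 compartments kept their sign, at 0.97, 0.49, 0.16 and -0.82. In these bulk libraries fewer cells of one kind and less RNA per cell cannot be told apart.

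Called and at least 2-fold higher were 13 of the genes (28.9%, against 11% of all genes), and 2 were at least 2-fold lower (4.44%, against 16.3%). The high-dose and vehicle libraries did not overlap in 32 genes that were higher and 10 that were lower, against 35.7% and 38.5% of all genes. In 25 genes all 3 high-dose libraries lay above each of the other 57 libraries of the series: 7 of 9 cytosolic J-domain genes, 7 of 8 CCT/TRiC genes, 4 of 5 ER lumen and 4 of 6 ER membrane genes, 3 of 8 mitochondrial genes and 0 of 9 specialised ones. In 8 genes, 5 of them mitochondrial, they lay below all the others. Of all genes 21.4% lay above and 19.7% below in this way.

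**Figure D1:**
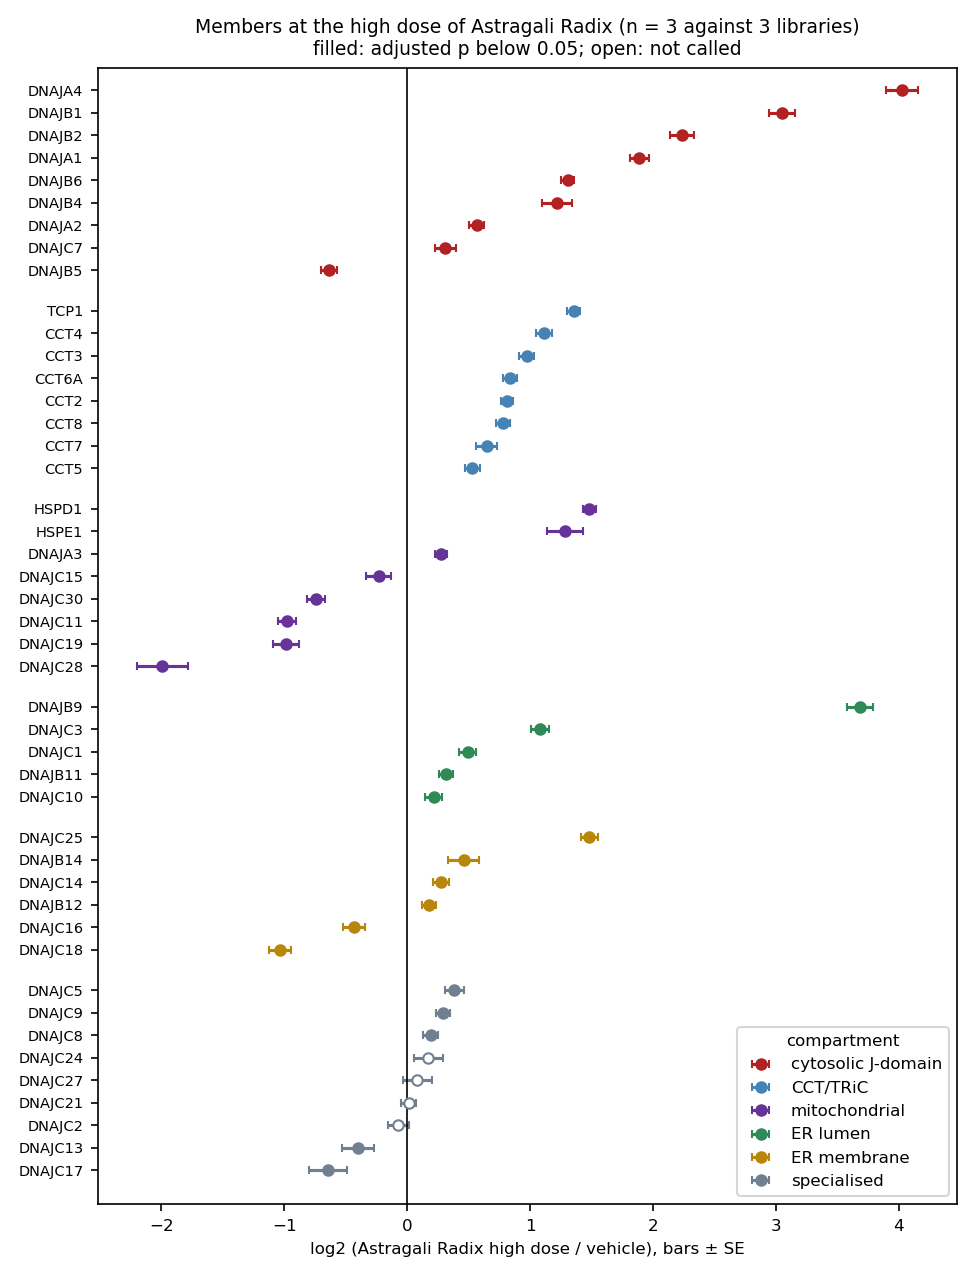
Log2 change at the high dose of Astragali Radix against the vehicle (x axis, bars are SE, n = 3 libraries per group) for each of the 45 genes, grouped by compartment. Cytosolic J-domain genes and CCT/TRiC subunits lie right of 0 except DNAJB5 at -0.64, and 5 of 8 mitochondrial genes lie left of 0; DNAJA3, DNAJB11, DNAJB12, DNAJC7, DNAJC8, DNAJC9, DNAJC10 and DNAJC14, all right of 0 here, fall below 0 under total-count scaling.

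Of the 9 cytosolic J-domain genes 8 were higher and 1 was lower. DNAJA4, a type I J-domain protein, had 60.5, 54.3 and 41.1 CPM in the high-dose libraries and 3.26, 2.96 and 3.35 CPM in the vehicle. Every high-dose library was thus far above the highest vehicle library, and the change was 4.03 ± 0.13 on the log2 scale (SE), 16.3-fold (adjusted p = 1.87e-29, edgeR). DNAJB1, the main stress-inducible HSP40, had 1780, 1384 and 896 CPM against 161, 162 and 166 CPM. The groups were far apart, although high-dose replicate 3 had well under the level of replicate 1, and the log2 change was 3.05 ± 0.11, 8.29-fold (adjusted p = 2.45e-28).

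DNAJB2, which passes ubiquitinated clients to the proteasome, averaged 240 ± 11.1 CPM at the high dose and 51.1 ± 3.93 CPM in the vehicle (SD, n = 3 each), a log2 change of 2.24 ± 0.10. DNAJA1, a general partner of HSC70, averaged 861 ± 149 and 233 ± 6.21 CPM (1.89 ± 0.08), and DNAJB6, which suppresses aggregation of polyglutamine proteins, 332 ± 29.9 and 134 ± 3.07 CPM (1.31 ± 0.05). The promoters of these last genes, DNAJA1 and DNAJB6, hold the heat shock elements of 3 units shown above, while no heat shock element was found in the window of DNAJB2. DNAJB4, another inducible HSP40, had 239.9, 204 and 148 CPM at the high dose and 86.9, 83.3 and 84.1 CPM in the vehicle, again without overlap (1.22 ± 0.12). DNAJA2 rose less (0.56 ± 0.06). DNAJC7, which binds HSP70 and HSP90 through TPR repeats, was called higher (0.31 ± 0.08, adjusted p = 9.23e-04), but it stood at -0.02 under total-count scaling. DNAJB5 was the exception and fell to 23.7 ± 2.23 CPM, against 36.8 ± 1.74 CPM in the vehicle (log2 change -0.64 ± 0.06).

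On some cytosolic genes the high-dose libraries differed much among themselves. The coefficient of variation was 32.7% for DNAJB1, 23.4% for DNAJB4, 19.1% for DNAJA4 and 17.3% for DNAJA1 at the high dose, and 4.61% for DNAJB2, the lowest of the 9 although its change was the third in size. In the vehicle, DNAJB1 varied by 1.56%. The median over the cytosolic J-domain genes was 9.42% at the high dose and 2.67% in the vehicle, and over all 45 genes 6.56% and 3.29%. High-dose replicate 1 was the highest and replicate 3 the lowest in 6 of 9 cytosolic J-domain genes and 7 of 8 CCT/TRiC genes, and in 17 of all 45. The reverse held for 8 genes. Neither the order of the replicates nor the coefficients of variation were computed over all genes. A spread of these genes and one of the whole libraries therefore cannot be told apart here. In the ER lumen the range was 1.10% (DNAJB11) to 8.04% (DNAJC1), with DNAJB9 at 7.16%.

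All 8 CCT/TRiC subunits rose together. TCP1, the first subunit of the ring, had 869, 849 and 761 CPM at the high dose of Astragali Radix and 315, 336 and 317 CPM in the vehicle. CCT4 had 515, 519 and 445 CPM against 226, 238 and 219 CPM. In both genes each high-dose library was well above each vehicle library, and the log2 changes were 1.36 ± 0.05 (2.56-fold, adjusted p = 7.01e-27) and 1.11 ± 0.06 (adjusted p = 3.96e-20). CCT3 (0.97), CCT6A (0.83), CCT2 (0.81) and CCT8 (0.78) lay between, and CCT7 (0.65 ± 0.09) and CCT5 (0.53 ± 0.06) changed least. CCT5 and CCT7 thus had the smallest changes and the highest level per kilobase in the vehicle. The subunits are used in equal number in the ring, and their transcripts did not change by an equal factor.

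Genes of the chaperonin's helpers and of its clients were set beside it. Prefoldin delivers unfolded actin and tubulin to the ring. Of 9 prefoldin and CCT cofactor genes, 6 were higher and 2 lower, with a median log2 change of 0.32. Under total-count scaling 2 were higher and 3 lower, with a median of -0.01. PFDN2 averaged 90.9 CPM at the high dose and 35.2 CPM in the vehicle (1.37 ± 0.10). Of 10 tubulin and actin genes, the main clients, 1 was higher and 6 were lower (median -0.50, and -0.84 under total counts). TUBA1B averaged 854 and 2267 CPM (-1.41 ± 0.06), TUBB 1333 and 3029 CPM (-1.18 ± 0.05) and TUBA1C 439 and 865 CPM (-0.98 ± 0.06).

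HSP70s, which J-domain proteins serve, and their exchange factors were set beside these genes. Of 19 such genes of all compartments 17 were higher and 0 lower, with a median log2 change of 1.21 (14 and 0, median 0.87, under total counts). They were 10 of 12 genes of the cytosol and nucleus, all 4 of the ER and all 3 of mitochondria. HSPA1A, an inducible HSP70, averaged 4378 ± 1227 CPM at the high dose and 125 ± 6.58 CPM in the vehicle (5.13 ± 0.16). Its near-identical copy HSPA1B had 2902 and 93.2 CPM (4.96 ± 0.18), and reads may be split between the 2 copies in an unknown way. BAG3, a nucleotide exchange factor of HSP70, had 564 and 76.8 CPM (2.88 ± 0.11). BAG4 and HSPBP1 did not pass the test.

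In the ER lumen all 5 genes were called higher, and 1 stood out. DNAJB9, also called ERdj4, a partner of BiP that holds the stress sensor IRE1 inactive, lies on chromosome 7 (108569568 to 108574850). It had 590.5, 561 and 512 CPM at the high dose of Astragali Radix and 41.7, 44.6 and 43.1 CPM in the vehicle. The groups were far apart and tight, and the log2 change was 3.68 ± 0.11 (adjusted p = 1.21e-31, edgeR). DNAJC3, or P58IPK, a BiP co-chaperone and inhibitor of the kinase PERK, had 387, 404 and 411 CPM against 185, 193 and 191 CPM, with no overlap (1.08 ± 0.07, adjusted p = 1.42e-17). DNAJC1, or ERdj1, changed by 0.49, which is the median of these 5 genes. It was placed here by its J domain, which lies in the lumen, although the protein spans the ER membrane. The rises of DNAJB11 (392 ± 4.29 and 314 ± 1.23 CPM, 0.32 ± 0.06) and of DNAJC10, a reductase of disulfide bonds (143 ± 5.80 and 123 ± 1.77 CPM, 0.22 ± 0.07), turned to -0.01 and -0.12 under total-count scaling. DNAJC10 also lost its call without high-dose replicate 2 (0.17).

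The other genes of ER folding and degradation gave 9 higher and 0 lower of 12 (median 0.49), or 7 higher and 3 lower (median 0.15) under total-count scaling. HERPUD1, of the degradation machinery of the ER membrane, averaged 728 and 129 CPM at the high dose and in the vehicle (2.49 ± 0.08), and XBP1, the transcription factor whose mRNA IRE1 splices, 548 and 129 CPM (2.09 ± 0.07). SDF2L1, a luminal partner of DNAJB11, averaged 134 and 47.6 CPM (1.49 ± 0.14). HSP90B1, PDIA4 and CRELD2, which are abundant or classical ER stress genes, did not pass the test with TMM. They were the 3 genes called lower under total-count scaling, with HSP90B1 at -0.38.

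Among the 6 ER membrane genes, 4 were called higher and 2 lower, or 1 and 3 under total-count scaling. DNAJC25, a transmembrane J-domain protein, had 48.5, 52.9 and 48.3 CPM at the high dose and 16.9, 19.3 and 17.4 CPM in the vehicle (1.48 ± 0.07, adjusted p = 3.09e-23). It shares its strand with the readthrough gene DNAJC25-GNG10, and with mean counts of 531 and 540 the reads of these 2 genes may be split in an uncertain way. DNAJC18 fell, with 8.69, 9.21 and 9.22 CPM at the high dose and 20.0, 18.2 and 17.4 CPM in the vehicle (-1.03 ± 0.09, adjusted p = 1.42e-14). In both genes the groups lay apart, in opposite directions. DNAJB14 and DNAJB12 work together with HSC70 in the degradation of membrane proteins. DNAJB14 averaged 32.0 and 23.2 CPM (0.46 ± 0.13, a call lost under total counts at 0.13), and DNAJB12 averaged 75.4 ± 1.15 and 66.6 ± 1.10 CPM (0.18 ± 0.05), which became -0.15 and was called lower under total-count scaling. DNAJC14 was higher by 0.28, or -0.06 under total counts, and DNAJC16 was lower (-0.43).

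The mitochondrial genes split. The chaperonin itself rose: HSPD1, or HSP60, had 892, 895 and 731 CPM at the high dose and 292, 307 and 301 CPM in the vehicle, each high-dose library being far above any vehicle library (1.48 ± 0.05, adjusted p = 6.69e-28). HSPE1, or HSP10, its neighbour on chromosome 2 in the opposite orientation, averaged 196 ± 13.7 and 80.6 ± 6.60 CPM (1.28 ± 0.15). The RefSeq windows of the 2 genes share 204 bases in one pair of windows, and the heat shock elements printed above lie in the other HSPD1 window. Both genes have many processed pseudogenes, 17 for HSPD1 and 26 for HSPE1 by name, and their expected counts were not whole in 96.7% and 98.3% of libraries. DNAJA3, the J-domain partner of mitochondrial HSP70, was called higher (0.28 ± 0.05) but stood at -0.06 under total-count scaling.

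The other 5 mitochondrial J-domain genes were lower. DNAJC28 had 0.40, 0.35 and 0.43 CPM at the high dose and 1.61, 1.58 and 1.504 CPM in the vehicle (-1.99 ± 0.21, adjusted p = 1.84e-11), a low level at which few reads stand behind each value. DNAJC19, of the import motor of the inner membrane, averaged 11.5 and 22.8 CPM (-0.98), and DNAJC11, which is associated with the cristae-organising MICOS complex, 50.6 and 99.3 CPM (-0.97). DNAJC30, an associate of ATP synthase, had 20.1 and 33.6 CPM (-0.74). DNAJC15, a homologue of DNAJC19, had 7.02 and 8.25 CPM (-0.23 ± 0.10, adjusted p = 0.0434). Its call was lost with RLE factors, with DESeq2, with no filter and without any of vehicle replicates 2 and 3 and high-dose replicates 1 and 3 (-0.24 to -0.21), and it stood at 0.01 once length and GC offsets were used. Of 9 mitochondrial proteases with TRAP1, 5 were higher and 3 lower (median 0.22), or 2 higher and 4 lower (median -0.11) under total-count scaling. The matrix protease LONP1 averaged 145 and 62.1 CPM (1.22 ± 0.15), HTRA2 66.4 and 30.4 CPM (1.13 ± 0.08) and the inner-membrane protease subunit SPG7 21.9 and 49.9 CPM (-1.19 ± 0.11).

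Of the 9 specialised genes, which serve a range of particular tasks, 3 were called higher and 2 lower, or 0 and 5 under total-count scaling. DNAJC5, the cysteine string protein of vesicles, was higher by 0.38, a call lost under total counts at 0.05. DNAJC9, a histone chaperone that shares its strand with MRPS16, was higher by 0.29 and DNAJC8, of the spliceosome, by 0.19, and both turned negative under total-count scaling (-0.04 and -0.14). DNAJC8 also lost its call without high-dose replicate 1 (0.14). DNAJC13, of endosomes, had 27.1, 31.6 and 32.5 CPM at the high dose and 38.5, 41.6 and 40.1 CPM in the vehicle (-0.40 ± 0.13, adjusted p = 0.00627), and DNAJC17, another splicing factor, 3.51, 3.40 and 4.06 CPM against 4.75, 6.39 and 5.93 CPM (-0.65 ± 0.16, adjusted p = 3.22e-04). Both lay below the vehicle in every high-dose library. DNAJC24 (0.17, adjusted p = 0.181), DNAJC27 (0.08, 0.550), DNAJC21 (0.01, 0.852) and DNAJC2 (-0.07, 0.465) did not pass the test. Their roles are in diphthamide synthesis for DNAJC24, in ribosome assembly for DNAJC21 and at the exit of the ribosome for DNAJC2.

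The changes came at the last step of dose. At the medium dose of Astragali Radix 5 of the genes were higher and 3 lower than in the vehicle, where 16.6% of all genes were called (7.75% higher and 8.81% lower), or 9 higher and 1 lower under total-count scaling (2199 and 1145 of all genes, against 1370 and 1557 with TMM). The 5 were TCP1 (log2 0.19 ± 0.05), CCT8 (0.23), CCT2 (0.16), CCT6A (0.16) and HSPD1 (0.19), all chaperonin genes, and the lower ones were DNAJB5 (-0.18), DNAJB12 (-0.29) and DNAJC11 (-0.24). The count was 4 without vehicle replicate 1 and 19 without low-dose Astragali Radix replicates 1 and 2, which otherwise enter the shared estimate of the spread. Shares of all genes are not given for these refits. With all libraries, DNAJA4, DNAJB1 and DNAJB9 were not called at the medium dose. DNAJB1 had 153, 147 and 142 CPM at the medium dose and 161, 162 and 166 CPM in the vehicle, and DNAJB9 44.2, 41.0 and 39.3 CPM against 41.7, 44.6 and 43.1 CPM.

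The step between the high and the medium dose, which uses no vehicle library, gave 29 higher and 10 lower genes beside 66.4% of all genes, or 17 and 16 under total-count scaling, where 3092 of all genes were higher and 9216 lower, against 5757 and 5986 with TMM. The medians were 1.32 for cytosolic J-domain genes, 0.66 for CCT/TRiC, 0.44 for the ER lumen and -0.40 for mitochondrial genes, beside -0.03 for all genes, and these 4 kept their sign under total-count scaling (0.93, 0.27, 0.05 and -0.79, beside -0.42 for all genes). The ER membrane median of 0.28 turned to -0.11 and the specialised one of 0.00 to -0.39, or to -0.13 with upper-quartile factors. This comparison and the one with the vehicle rest on the same high-dose libraries. Over the whole dose range, the trend (the high minus the low dose, per 5-fold step) was positive in 30 and negative in 8 called genes, beside 70% of all genes, or in 19 and 16 under total-count scaling (3321 and 9808 of all genes, against 5535 and 6839 with TMM). It was steepest for DNAJA4 at 2.08 ± 0.07 and DNAJB9 at 2.06 ± 0.05 per step, and lowest for DNAJC28 at -0.91 ± 0.11. These slopes include low-dose replicates 1 and 2, which stood apart, and spread over 2 steps what may come at 1. DNAJA4 averaged 2.89, 2.51 and 51.9 CPM at the low, medium and high dose, and DNAJB9 31.9, 41.5 and 554 CPM.

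At the low dose of Astragali Radix 17 genes were higher and 10 lower than in the vehicle (40.7% of all genes were called, 21.6% higher and 19.2% lower). Under total-count scaling they were 17 and 6, for which the share of all genes is not given here. Without replicates 1 and 2 the fit holds 1 low-dose library and its spread is taken from the other groups, so its count is not interpreted. With only the low dose and the vehicle in the fit, 0 were called by edgeR's test. DNAJC13 shows the split, with 19.1, 21.4 and 42.7 CPM at the low dose and 38.5, 41.6 and 40.1 CPM in the vehicle. Replicate 3 lay beside the vehicle and the other replicates well below it. DNAJB9 had 20.7, 33.9 and 41.0 CPM against 41.7, 44.6 and 43.1 CPM and was called lower (-0.43, and -0.33 without replicates 1 and 2). TCP1 had 419.7, 356 and 342 CPM against 315, 336 and 317 CPM, with every low-dose library above the vehicle.

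**Figure D2:**
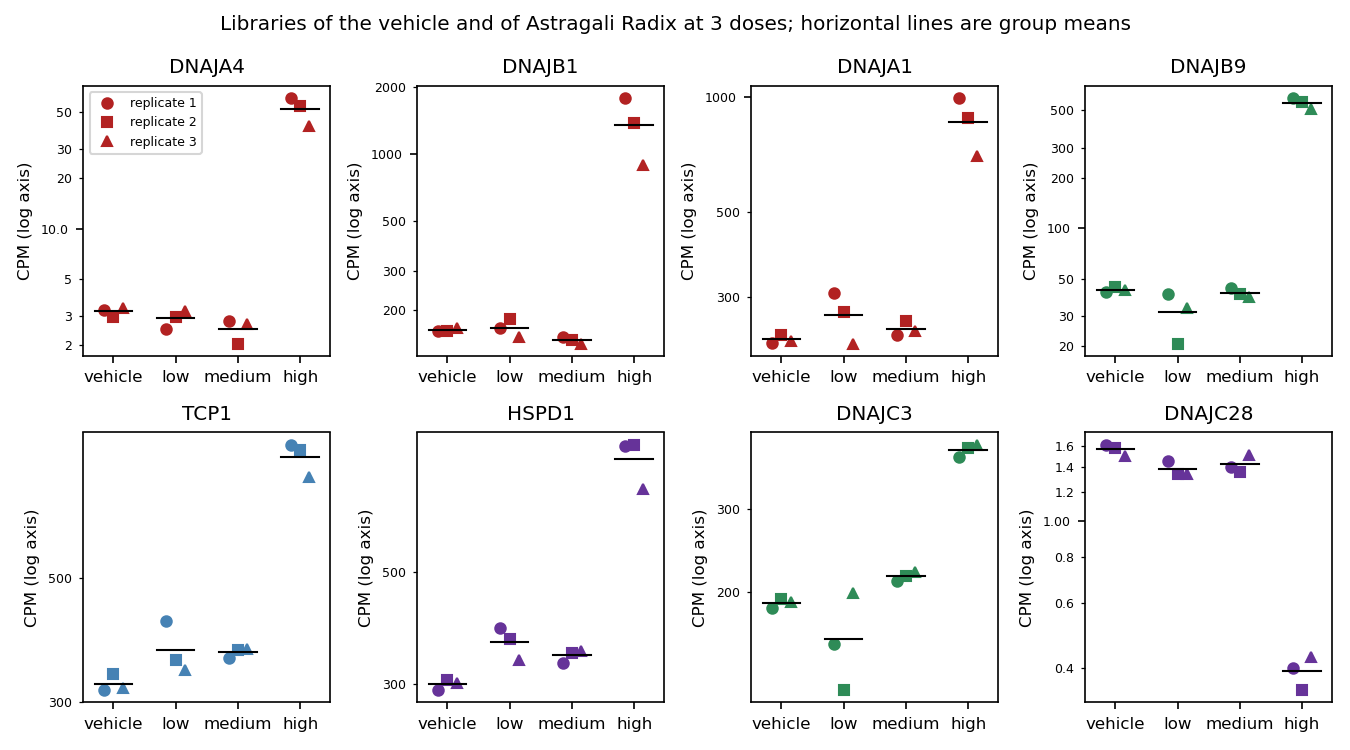
CPM on a log axis in each library of the vehicle and of Astragali Radix, for 8 genes. Doses were low, medium and high (8.8, 44 and 220 µg/mL), and horizontal lines are group means. DNAJA4 and DNAJB1 were called at the high dose but not at the lower doses, and DNAJB9 lies at 20.7 to 41.0 CPM at the low and 512 to 590.5 CPM at the high dose; DNAJC28 is lowest at the high dose.

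In the other 5 extracts, 28 of the 45 genes were called in none of the 15 comparisons with the vehicle, which all share the 3 vehicle libraries. That is 62.2%, against 56.5% of all genes. Cinnamomi Cortex had 0 higher and 4 lower at the low, 1 and 5 at the medium and 1 and 6 at the high dose. Of all genes 13.2%, 13% and 16.3% were called there, 6.13%, 5.86% and 7.7% higher and 7.12%, 7.17% and 8.56% lower. Sagunja-tang had 2 and 7 at the low, 2 and 7 at the medium and 1 and 9 at the high dose. Of all genes 14.1%, 13.5% and 22.7% were called there, 6.03%, 6.16% and 11.2% higher and 8.03%, 7.31% and 11.6% lower. Samul-tang had 1 and 5 at the low, 0 and 4 at the medium and 1 and 7 at the high dose. Of all genes 11.3%, 12.1% and 19.7% were called there, 4.96%, 5.19% and 9.37% higher and 6.37%, 6.88% and 10.3% lower. Palmul-tang had 0 and 5 at the low, 1 and 7 at the medium and 1 and 6 at the high dose. Of all genes 9.84%, 10.2% and 20.3% were called there, 4.27%, 4.44% and 10% higher and 5.57%, 5.75% and 10.2% lower. Sibjeondaebo-tang had 1 and 4 at the low, 0 and 2 at the medium and 2 and 3 at the high dose. Of all genes 9.61%, 5.76% and 23.1% were called there, 4.15%, 2.31% and 11.2% higher and 5.47%, 3.45% and 11.9% lower. Of the 45 genes 4.44% to 22.2% were called. Farthest from the share of all genes were Sibjeondaebo-tang high at 11.1% (5 genes, but 10 under total counts) and Palmul-tang medium at 17.8%. DNAJA4 and DNAJB1 were called in none of the 15, and HSPD1 was called higher in Sagunja-tang low and medium (0.17 and 0.16, and 0.26 in both under total counts). In a fit without low-dose Astragali Radix replicates 1 and 2, the 15 counts were 6 to 23 in place of 2 to 10. That fit changes the shared estimate of the spread for all genes. Shares of all genes are not given for it, so its counts are not read as a result about the 45 genes.

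**Figure D3:**
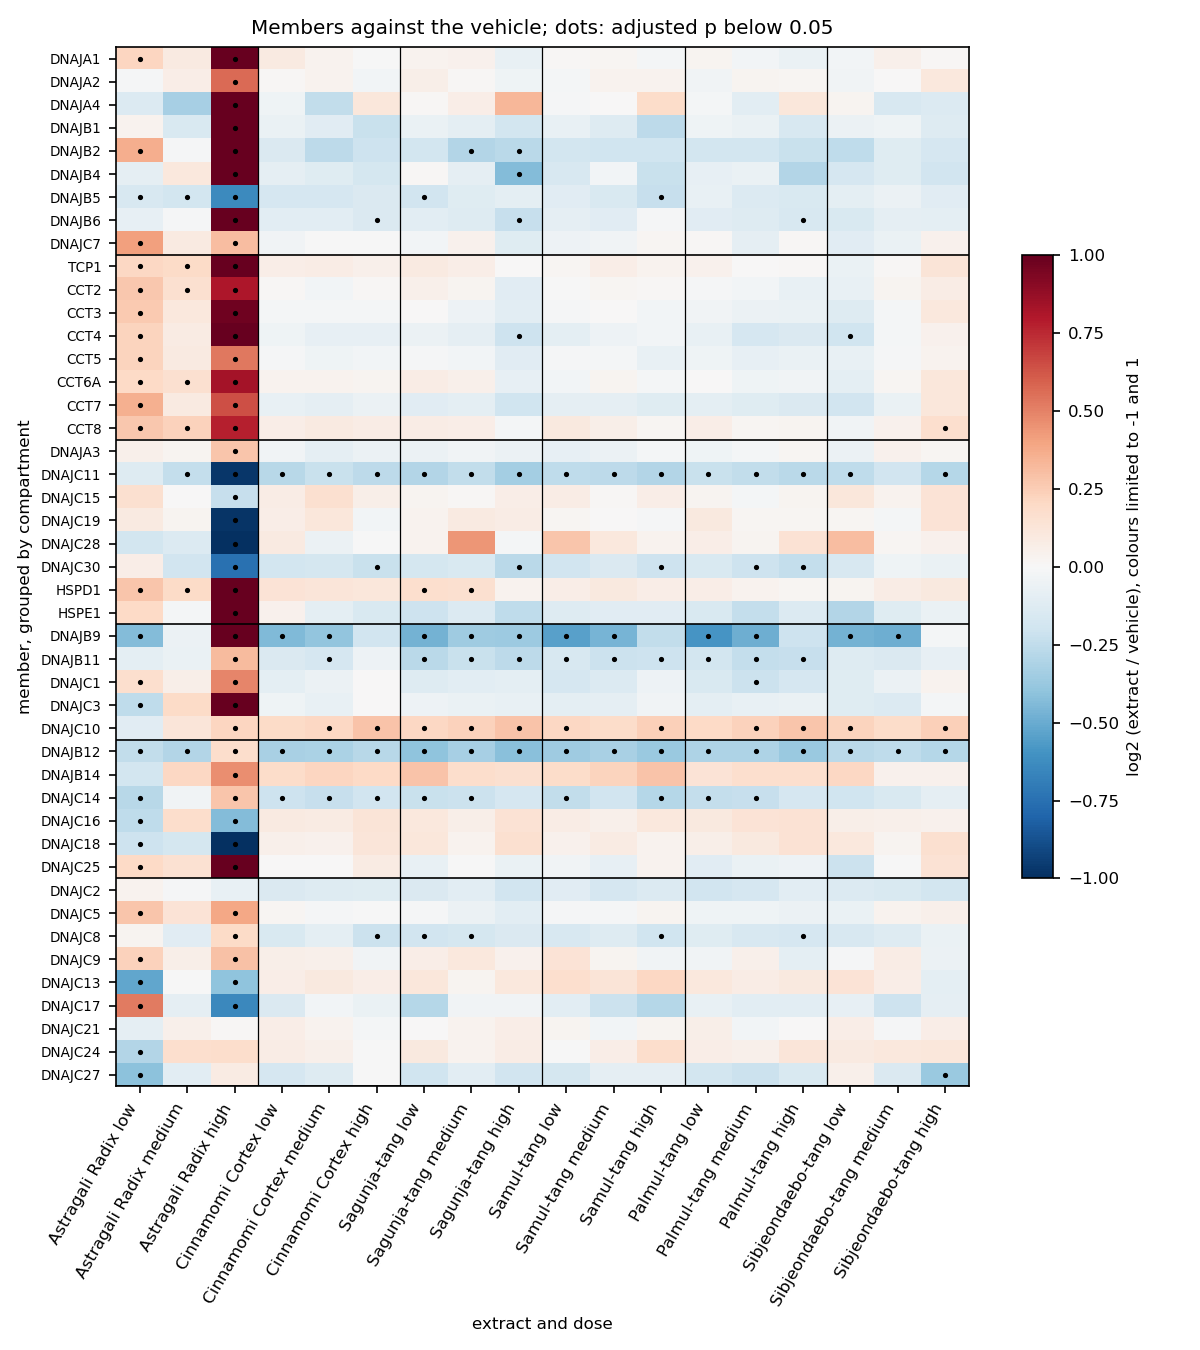
Heat map of log2 change against the vehicle for the 45 genes (rows, by compartment) in the 18 extract and dose groups (columns), with colours limited to -1 and 1 and dots for adjusted p below 0.05. The high dose of Astragali Radix is the column that stands out, and DNAJB12 is dotted in every column of the other 5 extracts.

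The balance of higher and lower genes in these comparisons turned on the scaling. With total counts, the higher and lower genes were 4 and 3, 4 and 2, and 4 and 1 at the low, medium and high dose of Cinnamomi Cortex, 8 and 4, 6 and 1, and 7 and 3 of Sagunja-tang, and 4 and 2, 3 and 2, and 4 and 2 of Samul-tang. Palmul-tang had 2 and 2, 1 and 2, and 2 and 1, and Sibjeondaebo-tang 1 and 2, 0 and 2, and 8 and 2. With upper-quartile factors the low doses of Cinnamomi Cortex and Palmul-tang had 2 and 3, and 1 and 4, and Samul-tang medium 1 and 4. Of all genes, 4.92% to 23.3% were called higher and 2.09% to 8.75% lower under total counts, with more higher than lower in each of the 15. With upper-quartile factors 2.51% to 12.5% were higher and 3.2% to 12.3% lower, with more higher in 9.

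Several genes shifted in all or nearly all of these groups. DNAJB12 had 48.5 CPM in the lowest, 52.8 in the median and 58.7 CPM in the highest of the 45 libraries of the 5 extracts, and 65.6 to 67.8 CPM in the vehicle. It was called lower in each of the 15 comparisons (log2 -0.42 to -0.26, and -0.31 to -0.19 under total counts, again called in each), with no library of these extracts inside the vehicle's range. DNAJC11 had 75.1, 83.2 and 89.3 CPM against 94.6 to 102.7 CPM and was called lower in all but Sibjeondaebo-tang medium (-0.34 to -0.19), but in 5 of 15 under total counts (-0.24 to -0.13). DNAJB11 had 253, 275 and 311 CPM against 313 to 316 CPM (-0.27 to -0.05, 10 called), and under total counts -0.18 to 0.03 with 2 called. DNAJC10 went the other way, with 134, 143 and 154 CPM against 121 to 125 CPM (0.18 to 0.29, 11 called, and 0.24 to 0.40 with 14 called under total counts). These 4 were the members with all 45 libraries on one side of the vehicle, 3 below it (6.67%, against 6.01% of all genes) and 1 above it (2.22%, against 3.62%). DNAJB6, DNAJC2, DNAJC14 and DNAJC30 lay below it in 44 of the 45, DNAJB1 in 43, DNAJC8 and DNAJB9 in 42 and CCT7 in 41. DNAJB14 and DNAJC16 lay above it in 41. The share of all genes at these looser counts was not computed, so they are not read as a result about the 45 genes. With TMM, DNAJC14 was called lower in 9 of the 15 comparisons, and DNAJC8 and DNAJC30 in 5 each. The mitochondrial share of counts was 5.51% to 7.18% in those 45 libraries and 7.55% to 8.04% in the vehicle, and its part in these shifts was not tested.

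At the high dose of Astragali Radix, DNAJB12 and DNAJB11 were above the vehicle (0.18 and 0.32, but -0.15 and -0.01 under total-count scaling), whereas they lay below it in the other extracts. Because the 3 vehicle libraries carry their own sample code, a shift of the vehicle and a shift of all extracts cannot be told apart. Without vehicle replicate 1, Sagunja-tang medium had 3 called genes in place of 9, and Cinnamomi Cortex high 3 in place of 7.

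**Figure D4:**
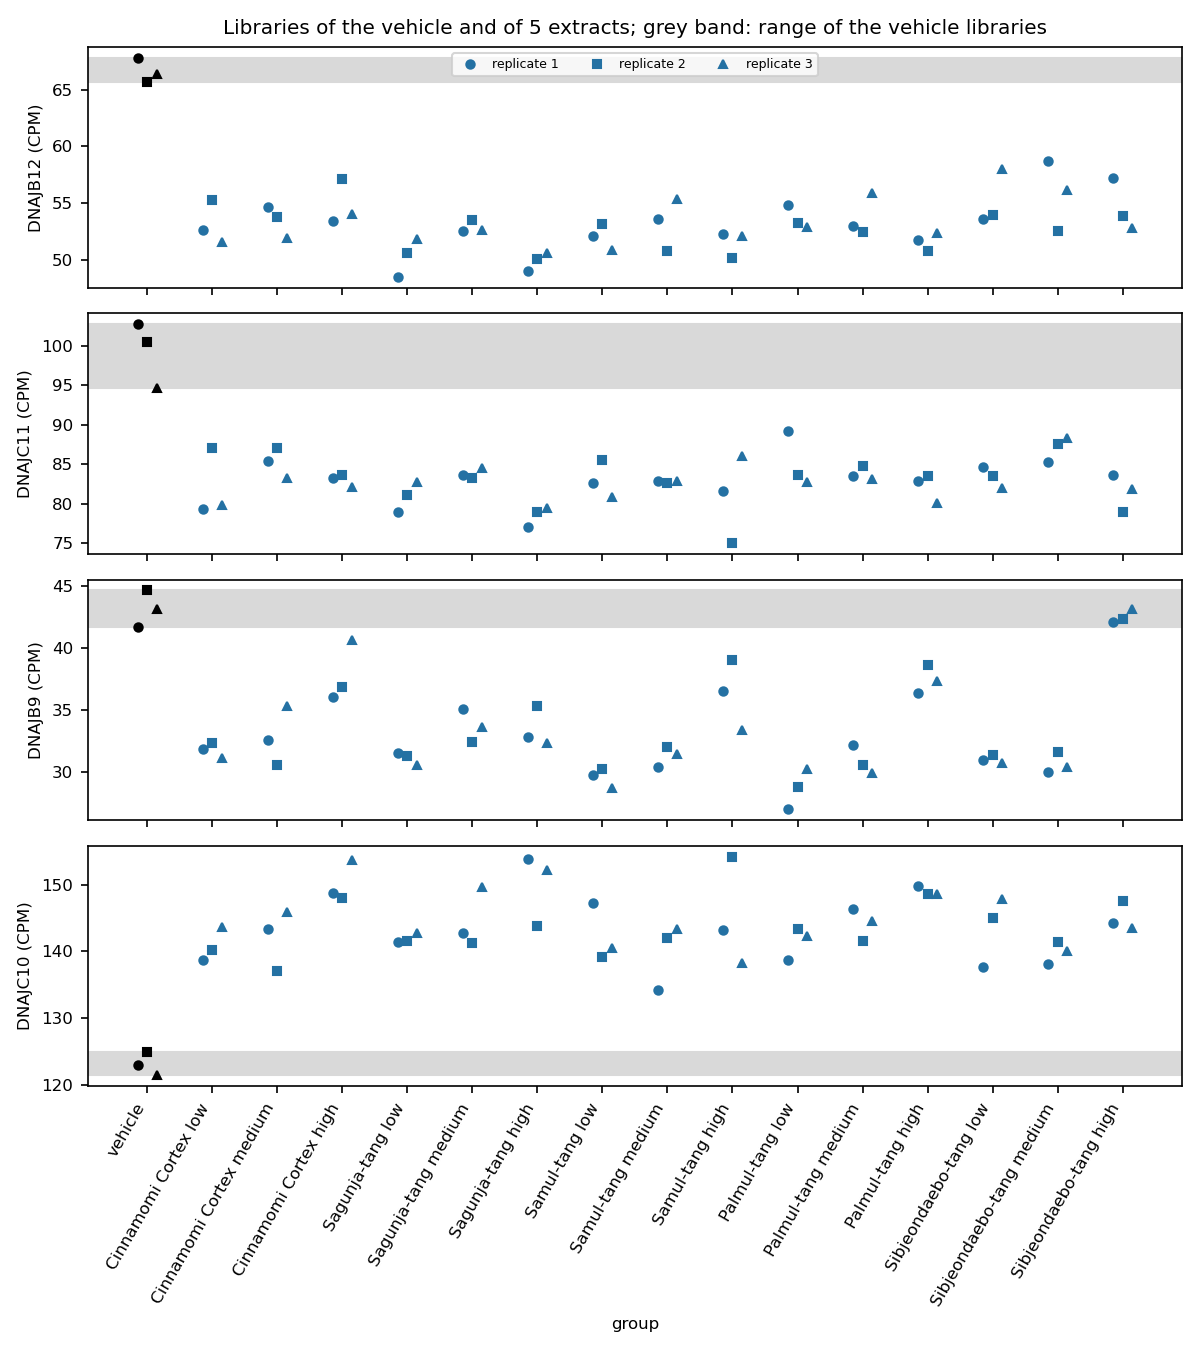
CPM of DNAJB12, DNAJC11, DNAJB9 and DNAJC10 in the vehicle and in the 15 groups of the other 5 extracts (low, medium, high for each), 1 point per library, with the vehicle's range as a grey band. DNAJB12 (48.5 to 58.7 CPM) and DNAJC11 lie below the band and DNAJC10 above it in all 45 libraries, while DNAJB9 returns to it at the high dose of Sibjeondaebo-tang.

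Dose trends compare doses of one extract with each other, without a vehicle library, and most of the 45 genes had none outside Astragali Radix. Cinnamomi Cortex and Samul-tang had 0 called genes by edgeR, where 0.441% and 1.41% of all genes were called. At an unadjusted p under 0.05 they had 1 and 3, and DESeq2 called 0 in each. Sagunja-tang had 0 higher and 2 lower (3.78% of all genes), Palmul-tang 1 and 0 (3.68%), and Sibjeondaebo-tang 9 and 1 (21.3%, 10.6% higher). DNAJB9 and CCT2 were each called in more than one of these trends.

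In Sibjeondaebo-tang, DNAJB9 had 31.0, 31.4 and 30.8 CPM at the low, 30.0, 31.7 and 30.4 at the medium and 42.1, 42.3 and 43.1 CPM at the high dose. The 3 high-dose libraries stood apart from the 6 others and reached the vehicle's 41.7 to 44.6 CPM. The trend was 0.23 ± 0.05 per 5-fold step, 1.37-fold over the whole range (adjusted p = 8.57e-04, edgeR). In Palmul-tang, DNAJB9 had 27.0, 28.8 and 30.2 CPM at the low and 36.4, 38.6 and 37.3 CPM at the high dose (0.19 ± 0.05, adjusted p = 0.0157). The doses did not overlap, but this call was lost without low-dose replicate 1 (0.17) or high-dose replicate 2 (0.18). At the low doses of all 5 extracts DNAJB9 was called lower than in the vehicle, at -0.59 in Palmul-tang to -0.44 in Cinnamomi Cortex, while at the high dose it was called lower in Sagunja-tang (-0.37, a call lost under total counts at -0.25). Over all 15 comparisons it was called in 11 (-0.59 to -0.02), and in 9 under total counts (-0.50 to 0.03).

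The CCT/TRiC subunits rose with dose in Sibjeondaebo-tang: 7 of 8 were called, with a median trend of 0.10 per 5-fold step beside -0.00 for all genes. CCT4 had 203, 197 and 194.5 CPM at the low, 224, 221 and 231 at the medium and 233, 224 and 247 CPM at the high dose. TCP1 had 311, 319 and 297 CPM at the low and 347, 342 and 372 CPM at the high dose, and CCT2 176, 180 and 177 against 196, 189 and 205 CPM. In all 3 genes the high and low doses did not overlap. The vehicle had 219 to 238 CPM of CCT4, 315 to 336 CPM of TCP1 and 186 to 187 CPM of CCT2. The low-dose libraries of CCT4 and CCT2 thus lay below the vehicle, and the high dose of CCT4 overlapped it. With TMM, CCT8 was the only subunit called higher than the vehicle in the 15 comparisons, in 1 of them, and CCT4 was called lower in 2. The trends were 0.12 ± 0.03 for CCT4 (adjusted p = 0.00461), 0.10 ± 0.03 for TCP1 (0.00427) and 0.07 ± 0.02 for CCT2 (0.0283). CCT7 rose by 0.15 ± 0.04, CCT3 by 0.12, CCT6A and CCT8 by 0.10 each, and CCT5 (0.05) was not called. Of the 9 prefoldin and CCT cofactor genes 4 were called higher and 0 lower (median 0.13), or 2 and 0 with total-count or upper-quartile scaling. Without high-dose replicate 3 of Sibjeondaebo-tang, 6 of the 45 genes were called in place of 10, and CCT2, CCT6A and CCT7 lost their calls. CCT2 also lost it without 3 other libraries, without the filter, or with total-count or upper-quartile scaling.

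The other genes called in the trend of Sibjeondaebo-tang were DNAJC25 and DNAJC27. DNAJC25 averaged 19.7 ± 1.83 CPM at the high and 15.4 ± 0.204 CPM at the low dose (0.18 ± 0.04, adjusted p = 2.86e-04). DNAJC27, a J-domain protein with a small-GTPase-like part, averaged 5.70 ± 0.341 and 7.65 ± 0.201 CPM (-0.21 ± 0.06, adjusted p = 0.00836), a call lost without high-dose replicate 3 (-0.19).

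In Sagunja-tang the CCT/TRiC trends were all negative, -0.08 to -0.04 per step (median -0.05), with CCT2 called. CCT2 had 194, 188 and 198 CPM at the low, 191, 191 and 188 at the medium and 176, 171 and 170 CPM at the high dose (-0.08 ± 0.02, adjusted p = 0.0493). DNAJB4 had 89.8, 87.7 and 78.6 CPM at the low, 80.5, 77.7 and 80.5 at the medium and 68.0, 60.4 and 59.98 CPM at the high dose (-0.22 ± 0.06, adjusted p = 0.0285). In both genes the high dose lay below the other doses. Neither call was stable: without any 1 of the 6 libraries CCT2 lost its call (-0.09 to -0.07), and DNAJB4 lost it without either of low-dose replicates 1 and 2 or of high-dose replicates 2 and 3 (-0.21 to -0.20).

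The slopes of the 2 formulas were compared with each other, a comparison added after their values were seen. The adjusted p-values do not allow for that choice. The Sibjeondaebo-tang trend exceeded the Sagunja-tang trend in 8 of the 45 genes and was lower in 0, where 5.88% of all genes were called, 2.65% higher. The 8 were 7 of the 8 CCT/TRiC genes and DNAJC25. For CCT4 the difference was 0.195 ± 0.0449 per step (adjusted p = 0.00510, edgeR), for CCT6A 0.18 ± 0.04 (0.00306) and for CCT2 0.15 ± 0.03 (0.00426). The median difference was 0.16 over CCT/TRiC, 0.04 over the 45 genes and -0.01 over all genes. Without high-dose replicate 3 of Sibjeondaebo-tang 4 genes were called. The formulas carry different sample codes, but each trend stays within 1 code.

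**Figure D5:**
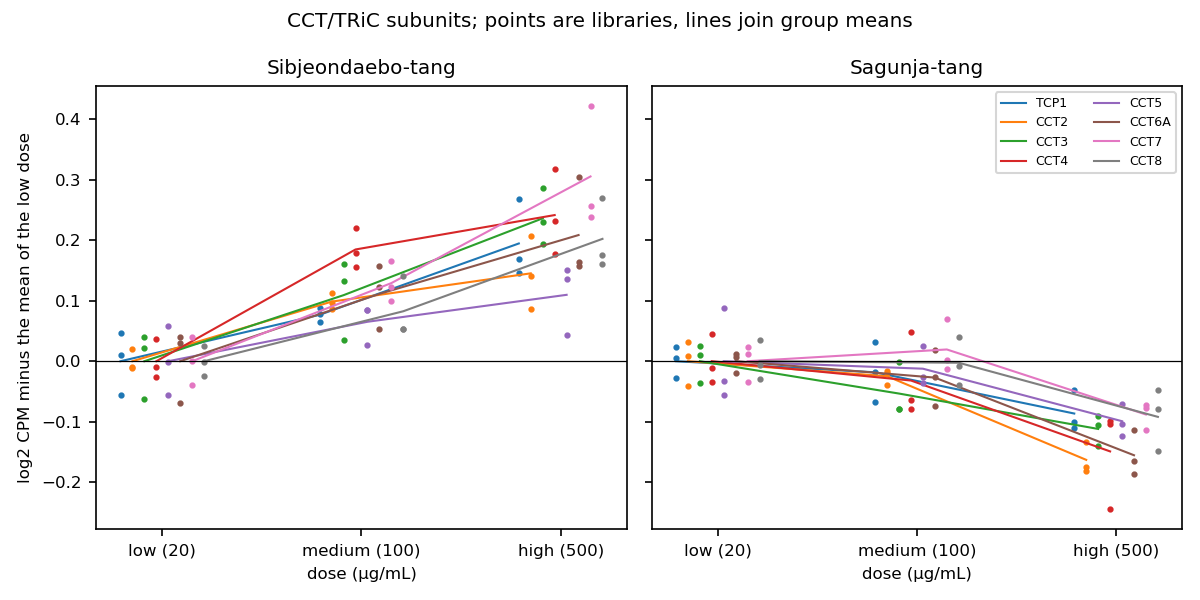
Log2 CPM of the CCT/TRiC subunits relative to the mean of the low dose, in each library at the low, medium and high dose of Sibjeondaebo-tang (left) and Sagunja-tang (right). The subunits lie above 0 at the high dose of Sibjeondaebo-tang, with trends of 0.05 to 0.15 per 5-fold step, and below 0 at that of Sagunja-tang, with trends of -0.08 to -0.04.

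Formulas at the same high dose gave no called difference among the 45 genes. Palmul-tang against Sagunja-tang gave log2 differences of -0.22 to 0.16, and Palmul-tang against Samul-tang -0.15 to 0.17, each with SEs of 0.0493 to 0.147. By edgeR 0 genes were called in either, beside 0.916% and 1.69% of all genes, 1 gene in each had an unadjusted p under 0.05, and DESeq2 called 0 and 1. Sibjeondaebo-tang against Palmul-tang, which adds Astragali Radix and Cinnamomi Cortex, gave 0 called genes as well (5.45% of all genes) and 11 at an unadjusted p under 0.05, with differences of -0.25 to 0.26. CCT7 (0.26 ± 0.09, adjusted p = 0.0669), DNAJC1 (0.21, 0.0602), CCT4 (0.19, 0.0734), CCT2 (0.15, 0.0741) and CCT3 (0.17, 0.0884) came nearest. DESeq2 called 5 genes there, and the edgeR fit without low-dose Astragali Radix replicates 1 and 2 called 15, of which 14 were higher in Sibjeondaebo-tang. The share and direction over all genes are not given for these 2 fits, so their counts are not read as a result about the 45 genes. A p that misses the threshold does not show that the formulas act alike on these genes.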

How the data were processed

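The deposited table holds expected counts that the authors made with RSEM for 60675 genes in 279 columns, of which 60 belong to these samples and 219 were not used. The submitters' processing notes name FastQC 0.11.9, Trim Galore 0.6.5, STAR 2.7.3a, RSEM 1.3.3 and hg38. The annotation release and strand setting are not given in the sources used here. Of the values 90.8% were whole (tolerance 1e-09), and all were rounded.

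The 57 libraries of the 19 groups of 3 were fitted together with edgeR 4.0.16 (R 4.3.3, limma 3.58.1) by its quasi-likelihood F test, with TMM scaling, filterByExpr and 1 mean per group. Genes at a Benjamini-Hochberg adjusted p below 0.05 over 17676 genes were called, with no minimum fold. An SE was taken as the size of the log2 change over the square root of F. A dose trend is the high minus the low dose, divided by 2. The common dispersion was 0.00656. Depth was 19793387 to 37152410 counts per library. The step was run on simulated counts in which few genes changed. That run does not cover the high dose of Astragali Radix, where most genes were called.

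The 45 genes, their compartments and the other lists were chosen with earlier results of these data known. Values of single libraries are printed for at most 14 of them, by a rule on the size of change per compartment and dose trend, and figures and ranges show others. There were 28 planned comparisons. The difference of 2 dose trends and the scaling of the other lists were added after values were seen. Alternatives were RLE, upper-quartile and total-count scaling, DESeq2 1.42.0, other filters and thresholds, length and GC offsets, a replicate block, fits of only the compared groups, and leaving out libraries. Gene positions are GENCODE 29 on GRCh38.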

Additional observations from a re-analysis of the deposited data

Results flagged for a closer look

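The dose trends of Sibjeondaebo-tang and Sagunja-tang differed in 8 genes by a test of the difference itself (edgeR's quasi-likelihood test, adjusted over 17676 genes), a comparison chosen after the values were seen. Per 5-fold step of dose, the Sibjeondaebo-tang trend minus the Sagunja-tang trend was 0.1976 for CCT7 on the log2 scale (SE 0.0615, adjusted p = 0.0445), 0.195 for CCT4 (adjusted p = 0.00510) and 0.182 for CCT6A (adjusted p = 0.00306). It was 0.1737 for CCT3 (adjusted p = 0.00968), 0.173 for DNAJC25 (adjusted p = 0.0296) and 0.1545 for CCT2 (adjusted p = 0.00426). For CCT8 it was 0.1472 (adjusted p = 0.0164) and for TCP1 0.1405 (adjusted p = 0.0119). In all 8 the Sibjeondaebo-tang trend was the higher one. In the 7 CCT/TRiC genes the trend was positive in Sibjeondaebo-tang and negative in Sagunja-tang.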

How the results depend on the processing

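The 45 genes' calls at the high dose of Astragali Radix (41) and in its step over the medium dose (39) stayed within 1.5 times under every alternative run but a minimum of 1.5-fold. The following counts, of called genes at the low, medium and high dose of an extract against the vehicle unless another comparison is named, were more than 1.5 times away from those reported. The cause was not tested. Shares of all genes are not given beside these counts, so they are not read as a result about the 45 genes. Without low-dose Astragali Radix replicates 1 and 2, Astragali Radix had 8 at low and 19 at medium, Cinnamomi Cortex 14, 11 and 12, Sagunja-tang 16 at low and 23 at high, and Samul-tang 14, 12 and 17. Palmul-tang had 10, 16 and 18, Sibjeondaebo-tang 17, 6 and 15, the dose trend of Cinnamomi Cortex 1, and the dose trend of Sagunja-tang 8. The dose trend of Samul-tang had 2, the dose trend of Sibjeondaebo-tang 17, Palmul-tang against Samul-tang 2, and Sibjeondaebo-tang against Palmul-tang 15. The difference of trends had 17. With only the compared groups in the fit, Astragali Radix had 0 at low and 22 at medium, Cinnamomi Cortex 12, 16 and 17, Sagunja-tang 17, 15 and 23, and Samul-tang 16, 15 and 17. Palmul-tang had 16, 18 and 20, Sibjeondaebo-tang 20, 10 and 10, the dose trend of Astragali Radix 25, and the dose trend of Cinnamomi Cortex 1. The dose trend of Sagunja-tang had 8, the dose trend of Samul-tang 3, the dose trend of Palmul-tang 4, and the dose trend of Sibjeondaebo-tang 16. Palmul-tang against Sagunja-tang had 1, Palmul-tang against Samul-tang 2, Sibjeondaebo-tang against Palmul-tang 9, and the difference of trends 18. With length and GC offsets, Cinnamomi Cortex had 9 at low and 10 at medium, Sagunja-tang 17 at high, Samul-tang 11, 8 and 13, and Palmul-tang 9 at low and 13 at high. Sibjeondaebo-tang had 12, 5 and 9, the dose trend of Cinnamomi Cortex 1, the dose trend of Sagunja-tang 1, and the dose trend of Samul-tang 1. The dose trend of Sibjeondaebo-tang had 18, Palmul-tang against Samul-tang 1, Sibjeondaebo-tang against Palmul-tang 18, and the difference of trends 15. With the replicate block and these offsets, Cinnamomi Cortex had 10 at low and 10 at medium, Sagunja-tang 16 at high, Samul-tang 10, 9 and 13, and Palmul-tang 10, 13 and 14. Sibjeondaebo-tang had 12, 5 and 9, the dose trend of Cinnamomi Cortex 1, the dose trend of Samul-tang 1, and the dose trend of Sibjeondaebo-tang 19. Palmul-tang against Samul-tang had 1, Sibjeondaebo-tang against Palmul-tang 18, and the difference of trends 16. With the replicate block alone, the dose trend of Sagunja-tang had 1. With DESeq2, Cinnamomi Cortex had 10 at low, Samul-tang 7 at medium, Sibjeondaebo-tang 9 at low, and Palmul-tang against Samul-tang 1. Sibjeondaebo-tang against Palmul-tang had 5. With RLE factors, Sibjeondaebo-tang had 8 at low. With upper-quartile factors, the dose trend of Sagunja-tang had 1. Scaled by total counts, Cinnamomi Cortex had 7 at low, Palmul-tang 3 at medium and 3 at high, Sibjeondaebo-tang 3 at low and 10 at high, and the dose trend of Sagunja-tang 1. The difference of trends had 5. With no filter on low counts, Astragali Radix had 17 at low and 2 at medium, Cinnamomi Cortex 2 at medium and 3 at high, Sagunja-tang 5 at low and 4 at medium, and Samul-tang 3 at low. Palmul-tang had 2 at low and 2 at medium, Sibjeondaebo-tang 3, 1 and 3, the dose trend of Sagunja-tang 1, and Sibjeondaebo-tang against Palmul-tang 1. The difference of trends had 5. With a filter of 1 CPM in 3 libraries, Cinnamomi Cortex had 7 at low, and Sibjeondaebo-tang 8 at low. With adjusted p below 0.01, Astragali Radix had 4 at medium, Cinnamomi Cortex 2 at medium and 3 at high, Sagunja-tang 4 at low and 2 at medium, and Samul-tang 2 at low and 5 at high. Palmul-tang had 2, 3 and 4, Sibjeondaebo-tang 2 at low and 3 at high, the dose trend of Sagunja-tang 0, and the dose trend of Palmul-tang 0. The difference of trends had 4. With a minimum of 1.5-fold, Astragali Radix had 25 at high, Palmul-tang 1 at low, every other dose of an extract 0, and the dose trend of Astragali Radix 22. The dose trend of Sagunja-tang had 0, the dose trend of Palmul-tang 0, the dose trend of Sibjeondaebo-tang 0, and high against medium Astragali Radix 21. The difference of trends had 0.

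Leaving out 1 library at a time gave, at the low, medium and high dose, 19 to 29, 4 to 7 and 39 to 41 genes for Astragali Radix, 2 to 5, 2 to 4 and 3 to 5 for Cinnamomi Cortex, and 4 to 6, 3 to 5 and 9 to 10 for Sagunja-tang. It gave 2 to 4, 3 to 4 and 6 to 8 for Samul-tang, 2 to 3, 3 to 4 and 4 to 6 for Palmul-tang, and 2 to 4, 2 to 2 and 3 to 6 for Sibjeondaebo-tang. The dose trends gave 37 to 41 for Astragali Radix, 0 to 1 for Sagunja-tang, 0 to 1 for Palmul-tang and 6 to 10 for Sibjeondaebo-tang. High against medium Astragali Radix gave 38 to 39, Sibjeondaebo-tang against Palmul-tang 0 to 4 (4 without Sibjeondaebo-tang high replicate 2), and the difference of trends 4 to 8 (4 without Sibjeondaebo-tang high replicate 3).

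Directions turned in these log2 values. Under total counts at the high dose of Astragali Radix against the vehicle, they were DNAJA3 -0.056, DNAJB11 -0.0141, DNAJB12 -0.1541, DNAJC7 -0.0216, DNAJC8 -0.1401, DNAJC9 -0.0418, DNAJC10 -0.1182 and DNAJC14 -0.0565, with medians of -0.1053 (ER membrane) and -0.2502 (specialised), and -0.0578 (specialised) with upper-quartile factors. In its dose trend they were DNAJA3 -0.0683, DNAJC1 -0.0185, DNAJC8 -0.0978, DNAJC10 -0.0214, CCT5 -0.0273 and CCT7 -0.0332, and DNAJC10 -0.007 without low-dose replicates 1 and 2. Against the medium dose they were DNAJA3 -0.1399, DNAJB11 -0.0073, DNAJC5 -0.1442, DNAJC7 -0.1656, DNAJC8 -0.0854, DNAJC9 -0.1555 and DNAJC14 -0.0773. DNAJC15 stood at 0.0125 against the vehicle and 0.0464 against the medium dose with length and GC offsets, and at 0.0116 and 0.0451 with the replicate block as well. At the low dose without replicates 1 and 2 they were DNAJA1 -0.022, DNAJB2 -0.041, DNAJC1 -0.0909, DNAJC3 0.0828, DNAJC13 0.1067, DNAJC16 0.0897, DNAJC18 0.0879 (0.0227 with offsets, 0.0213 with the block too), DNAJC24 0.0973 and CCT7 -0.0994.

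Pairing of the libraries by replicate number was weak. Deviations of libraries with the same number correlated with a median r of 0.00913 (-0.142 to 0.126), against -0.00503 for other numbers. Even so, most libraries, 38 of 57, lay nearest their own of the 3 numbers. A replicate block by itself moved the count of the Sagunja-tang trend to 1 and no other count by over 1.5 times. Libraries of a group differed by more than sampling noise. For 12 of the 45 genes the annotation holds pseudogenes of their name, most for HSPE1 (26) and HSPD1 (17), and 17 overlap a protein-coding gene on the opposite strand, among them DNAJA4, DNAJB1, DNAJB9, TCP1 and CCT4. Reads of such pairs cannot be told apart if the counting did not use strand. Depth limits DNAJC28, which averaged 0.394 CPM at the high dose of Astragali Radix and 1.56 CPM in the vehicle.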

Other observations

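Rehmanniae Radix Preparata had 1 library per dose, so that its values carry no replicate check. Over the 45 genes the log2 difference from the vehicle mean ran between -0.51 (DNAJB12) and 0.31 (DNAJC28) at the low dose, between -0.36 (DNAJB12) and 0.28 (DNAJB14) at the medium dose, and between -0.35 (DNAJC25) and 0.31 (DNAJA4) at the high dose.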
